A study of Mus musculus with 4 samples.

Results

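The erythroid and haemoglobin genes are the genes that red blood cells and their precursors use to make and carry haemoglobin. They were listed as a sign of blood or bone marrow in the pools of olfactory mucosa. The list held 8 genes: *Hba-a1*, *Hbb-b1*, *Alas2*, *Slc4a1*, *Epb42*, *Ahsp*, *Klf1* and *Car1*. A gene was taken as measured when a non-control probe carried an accession that the RefSeq gene table pairs with its symbol. In this way 7 of the 8 genes were found, by 10 of the 56605 probes. *Ahsp* was not analysed here, because the table paired no accession with that symbol. The measurements came from 4 Agilent one-color arrays of nasal mucosa of C57BL/6 mice (C57BL/6J in the labels) that the study describes as male, untreated and of no stated genetic change. The sample titles name olfactory epithelium. The paper's methods name the septum for histology and qPCR, and for the arrays only nasal mucosa. Of these arrays, 2 held young adult mice (8 weeks) and 2 held aged mice (16 months), and each array held RNA pooled from 5 mice. Whether the 2 pools of an age shared mice was not stated. The methods name fewer mice per age for gene analyses than separate pools would need, so that, if the arrays used those mice, the pools of an age shared most of them, and every SD and test over 2 pools may then measure mainly technical spread. A description naming silica aspiration and lung stood on all 4 samples, went against their titles and tissue and was not used, and the age stood under a label about silica. The stated sex was not borne out on the arrays. *Xist*, the RNA of the inactive X chromosome of females, was at 645 and 612 in the pools labelled young adult and at 644 and 637 in those labelled aged, well above background on all 4 arrays, whereas the Y-linked *Ddx3y*, *Eif2s3y*, *Kdm5d* and *Uty* were above it on 0 of 4. Since this held for both ages, no array could be left out on its account. Neither the labels nor the methods state whether blood was flushed from the vessels of the mucosa before it was frozen.

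Red blood cells are made in the bone marrow. Erythroblasts there switch on globin genes under transcription factors that include GATA1 and KLF1, take up iron, build haem, lay down a membrane skeleton and finally expel the nucleus. The young red cells that enter the blood, called reticulocytes, have no nucleus but still carry globin mRNA, so that blood in a tissue sample brings globin transcripts, whereas transcripts of factors such as *Klf1* and *Gata1* mark nucleated erythroblasts. Haemoglobin holds alpha chains and beta chains. In mice the alpha chains come from the neighbouring genes *Hba-a1* and *Hba-a2*, and the adult beta chains from a pair of genes whose form depends on the strain. C57BL/6 mice carry *Hbb-bs* and *Hbb-bt*, and *Hbb-b1* and *Hbb-b2* belong to another haplotype. Among the genes measured, no probe carried an accession of *Hbb-bs*. Adult globin genes of one cluster are close in sequence, and how far a probe for one detects its relatives cannot be read from the arrays.

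The promoters of the globin genes *Hba-a1*, *Hba-a2* and *Hbb-bt*, which were lower in both aged pools, are shown with that of the listed gene *Alas2*. A link between promoter and age difference was not tested. RefSeq's promoter table held 4 of the 8 listed genes, of which *Klf1* and *Epb42* are not shown. Each line gives the 150 bases before the transcription start, 5′ to 3′, in GRCm38.p6. The array was designed on another build, and no probe position was used. Capitals mark matches, on either strand, to CCACCC (a form of the KLF1 box), GATAA (the core that GATA1 prefers), CCAAT and, lastly, TATAA. Other forms of the KLF1 box were not searched, so that a lower-case stretch, as in *Hbb-bt*, may hold one. The stretches lie at chr11:32283522-32283671 (plus strand) for *Hba-a1*, chr11:32296342-32296491 (plus strand) for *Hba-a2*, chr7:103813924-103814073 (minus strand) for *Hbb-bt* and chrX:150547267-150547416 (plus strand) for *Alas2*.
Hba-a1: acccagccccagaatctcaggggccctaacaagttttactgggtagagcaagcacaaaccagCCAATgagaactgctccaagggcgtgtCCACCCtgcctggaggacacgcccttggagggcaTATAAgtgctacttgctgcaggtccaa
Hba-a2: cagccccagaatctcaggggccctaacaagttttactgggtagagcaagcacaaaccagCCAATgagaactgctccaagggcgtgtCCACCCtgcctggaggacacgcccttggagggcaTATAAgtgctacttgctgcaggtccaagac
Hbb-bt: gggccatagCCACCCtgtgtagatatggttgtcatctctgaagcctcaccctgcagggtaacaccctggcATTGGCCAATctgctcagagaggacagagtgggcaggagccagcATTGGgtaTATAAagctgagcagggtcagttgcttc
Alas2: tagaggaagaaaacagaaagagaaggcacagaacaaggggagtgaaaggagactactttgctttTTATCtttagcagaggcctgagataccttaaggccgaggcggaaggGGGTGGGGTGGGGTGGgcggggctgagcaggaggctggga

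With an offset of 3 bases, the alpha globin promoters were identical at 147 of 147 bases. *Hba-a1* held CCAAT 88, CCACCC 61 and TATAA 27 bases before its start, and *Hbb-bt* held CCACCC at 141, CCAAT at 75 and TATAA at 28 bases on the same strand, with CCAAT also at 80 and 36 bases on the opposite strand. *Hbb-bs*, whose promoter was held as well but is not shown, had CCAAT at 76 and TATAA at 29 bases, and no CCACCC. *Alas2* had no CCAAT or TATAA in this window, but GATAA at 86 and overlapping CCACCC matches at 40, 35 and 30 bases, all on the opposite strand. In windows of the same length over 27025 genes, CCACCC was found in 19.35%, GATAA in 13.62%, CCAAT in 25.27% and TATAA in 14.72%. Such a match is a description of the letters and not a site of binding.

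None of the 7 measured genes passed the criteria of the study for a change with age. The alpha globin gene *Hba-a1* and the membrane gene *Slc4a1* were lower in both aged pools, by log2 fold changes of -0.28 and -0.35. Their 95% intervals included 0 (-0.58 to 0.02 and -0.75 to 0.04). A call needed P below 0.05 in limma's moderated test together with an FDR, by the method of Benjamini and Hochberg across the 45604 genes tested, of less than 0.25. By this rule 0 of the 7 genes were called, against 3.98% of all genes tested, and 0 of the 7 had an unadjusted P below 0.05, against 13.1% of all genes. The log2 fold change of aged against young adult mice lay between -0.35 for *Slc4a1* and 0.071 for *Alas2*, with a median of -0.14 (0.0093 over all genes tested). It was below 0 for 6 of the 7 genes, or 85.7%, against 48.5% of all genes, but this count holds *Epb42*, which was not above background on any array, and *Car1*, whose single probe above background gave 0.020. The 2 arrays of aged mice lay below those of young adult mice for *Hba-a1*, *Hbb-b1* and *Slc4a1*, 3 of 7 genes or 42.9%, a separation found for 21.8% of all genes tested. The reverse, both aged arrays above both young adult arrays, was seen for 0 of 7 genes and for 24.2% of all genes. When probes that failed to stand well above background on the pair of arrays of either age were removed, 2 genes, *Hba-a1* (FDR = 0.16) and *Slc4a1* (FDR = 0.175), were called as lower in aged mice by limma, with the same fold changes as before, where 12.6% of all genes left were called lower. In that fit 6 of the 7 genes were left, and *Slc4a1* was left through its young adult arrays, where it is high, as it was well above background on 1 of the 2 aged arrays. For one gene on these 4 arrays, the smallest P that the exact permutation test (two-sided) allows is 0.333.

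The expression level of *Hba-a1*, which encodes an alpha chain of haemoglobin, was 21600.4 and 23492 in the pools of young adult mice and 17715 and 19418 in those of aged mice. A level here is the normalized intensity, averaged over the probes of a gene, and it is compared between arrays but not between genes. Both aged pools lay below both young adult pools, and the gap between the nearest pools of different age was of the size of the gap between pools of one age, which differed by 8.39% of their mean in young adult and 9.17% in aged mice. The means were 22546 ± 1338 (SD, n = 2 pools) and 18566 ± 1204, a log2 fold change of -0.28 (FDR = 0.402 by limma, standard error 0.10). The 95% interval ran from -0.58 to 0.02, or from 0.668-fold to 1.01-fold. In bulk RNA, fewer red cells and less globin mRNA per cell cannot be told apart.

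The alpha globin probes were among those spotted 10 times on each array, so that the precision within an array could be measured. *Hba-a1* has 2 such probes and *Hba-a2* has 1. Over the spots of one probe on one array, the coefficient of variation of the background-corrected intensity was between 6.77% and 11.5%. For the brighter *Hba-a1* probe, and before normalization between arrays, the median spot had an intensity of 40492 and 41334 for young adult mice against 27648 and 33382 for aged mice. Its spots ran from 34832 to 47145 on young adult array 1 and from 23167 to 30855 on aged array 1, the 2 arrays of one slide, and did not overlap. On the other pair of arrays they ran from 34116 to 48668 and from 29179 to 38636, and did overlap. Spots of one array share a single pool and are not replicates of an age. The log2 fold change was -0.30 by this probe and -0.26 by the other *Hba-a1* probe.

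*Hba-a2*, the neighbouring alpha globin gene, was at 35064 and 38116 in young adult mice and at 27755 and 32748 in aged mice. Its log2 fold change of -0.28 (FDR = 0.482 by limma, standard error 0.13) was close to that of *Hba-a1*, with which it shares sequence, so that the 2 genes may not be independent measurements.

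*Hbb-b1*, the listed beta globin gene, showed the smallest difference among the adult globins. Its level was 835 and 776 in the pools of young adult mice and 763 and 744 in those of aged mice. The pools separated by age, but the nearest ones of different age lay closer together than the young adult pools did. The log2 fold change was -0.096 (FDR = 0.682 by limma, standard error 0.085, 95% interval -0.35 to 0.16).

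The other beta globin probes gave differences between those of *Hbb-b1* and *Hba-a1*. *Hbb-bt*, an adult beta globin gene of C57BL/6 mice, was at 8656 and 8097 in young adult and 7594 and 6820 in aged mice. Its log2 fold change was -0.22 (FDR = 0.491 by limma, standard error 0.10). *Hbb-b2* was at 2421 and 2373 in young adult and 1972 and 2077 in aged mice. Its log2 fold change of -0.24 (FDR = 0.374 by limma, standard error 0.080) passed the limit on P and not that on FDR. All 5 adult globin genes with a probe were lower in both aged pools, a separation found for 21.8% of all genes tested. Their log2 fold changes ran from -0.096 to -0.28 with a median of -0.24. Of the 5 genes 0 were called, against 3.98% of all genes. Their probes may detect each other's transcripts, so that they may not be independent measurements. This group of 5 was put together after their values had been seen.

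**Figure D1:**
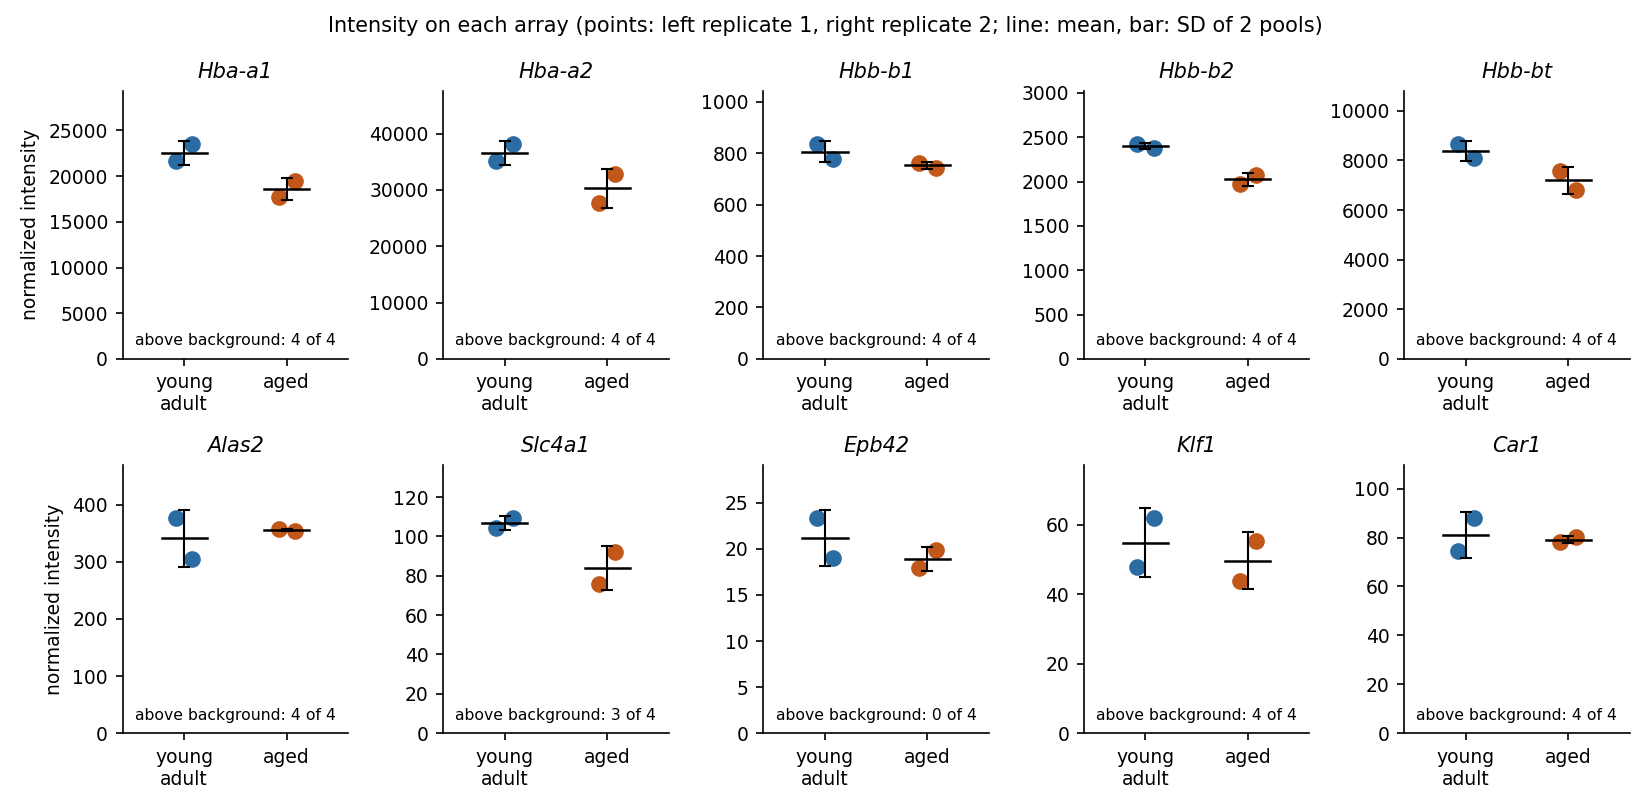
Normalized intensity (vertical axes, linear from 0) of the 7 measured genes and 3 other adult globin genes on each of the 4 arrays, with the mean and SD of the 2 pools of each age and the number of arrays on which the gene was well above background. The 5 globin genes and *Slc4a1* lie lower in both aged pools, a separation found for 21.8% of all genes tested. The pools of *Alas2*, *Klf1* and *Car1* overlap, and *Epb42* was above background on 0 of 4 arrays.

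Globins of the embryo are made by other genes of the same clusters. *Hbb-bh1*, an embryonic beta-like globin gene, was at 63.5 and 114 in young adult mice and 44.9 and 52.8 in aged mice, well above background on 3 of the 4 arrays, and its log2 fold change was -0.81 (FDR = 0.459 by limma, standard error 0.34). Its young adult pools differed from each other by more than the nearest pools of different age did. *Hbq1b* was above background on 1 array only, and *Hba-x*, *Hbq1a*, *Hbb-bh2* and *Hbb-y* on none. Of the 9 other globin genes measured, 0 were called, against 3.98% of all genes tested.

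*Alas2* encodes the form of 5-aminolevulinate synthase that starts haem synthesis in erythroid cells. Its level was 376 and 306 in the pools of young adult mice and 358 and 355 in those of aged mice. The aged pools lay between the young adult pools, which differed by 20.6% of their mean. The log2 fold change was 0.071 (FDR = 0.853 by limma, standard error 0.14, 95% interval -0.34 to 0.48), smaller than the spread between pools. Between the 2 arrays on the shared slide, young adult 1 and aged 1, it was -0.073, and 0.21 between the other 2 arrays.

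*Slc4a1* encodes band 3, the anion exchanger of the red cell membrane. Its level was 104 and 109 in the pools of young adult mice and 75.9 and 91.9 in those of aged mice, where it was well above background on 1 of the 2 arrays. The aged pools lay below the young adult pools and differed from each other by 19.1% of their mean. The log2 fold change was -0.35 (FDR = 0.414 by limma, standard error 0.13, 95% interval -0.75 to 0.04), with -0.46 between the arrays of the shared slide and -0.25 between the other 2 arrays. Its difference was above that of *Hba-a1* in size in this fit, but below it with a normexp offset of 50 (-0.23 against -0.28) and without background correction (-0.25 against -0.28). In aged mice its signal was thus barely distinct from background. *Epb42*, which encodes protein 4.2 of the red cell membrane skeleton, was not well above background on any array. A fitted difference for it is therefore not a measured change in level, although it enters the median and the counts over the 7 genes.

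*Klf1*, which encodes the erythroid transcription factor that binds CACCC boxes of globin promoters, has 2 probes. One was not well above background on any array. The other was at 96.3 and 132 in young adult mice and 80.7 and 115 in aged mice, well above background on all 4 arrays, and the pools of the 2 ages overlapped. Averaged over both probes, the log2 fold change of *Klf1* was -0.14 (FDR = 0.80 by limma, standard error 0.21, 95% interval -0.76 to 0.47), and the brighter probe alone gave -0.23. The replicate 1 pools were lower than the replicate 2 pools in both ages.

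*Car1* encodes a carbonic anhydrase of red cells that some epithelia make as well. It too has one probe that was not well above background on any array. Its other probe was at 291 and 326 in young adult mice and 310 and 315 in aged mice. The aged pools lay between the young adult pools, and this probe gave a log2 fold change of 0.020. Averaged over both probes it was -0.029 (FDR = 0.933 by limma, standard error 0.12, 95% interval -0.39 to 0.33).

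**Figure D2:**
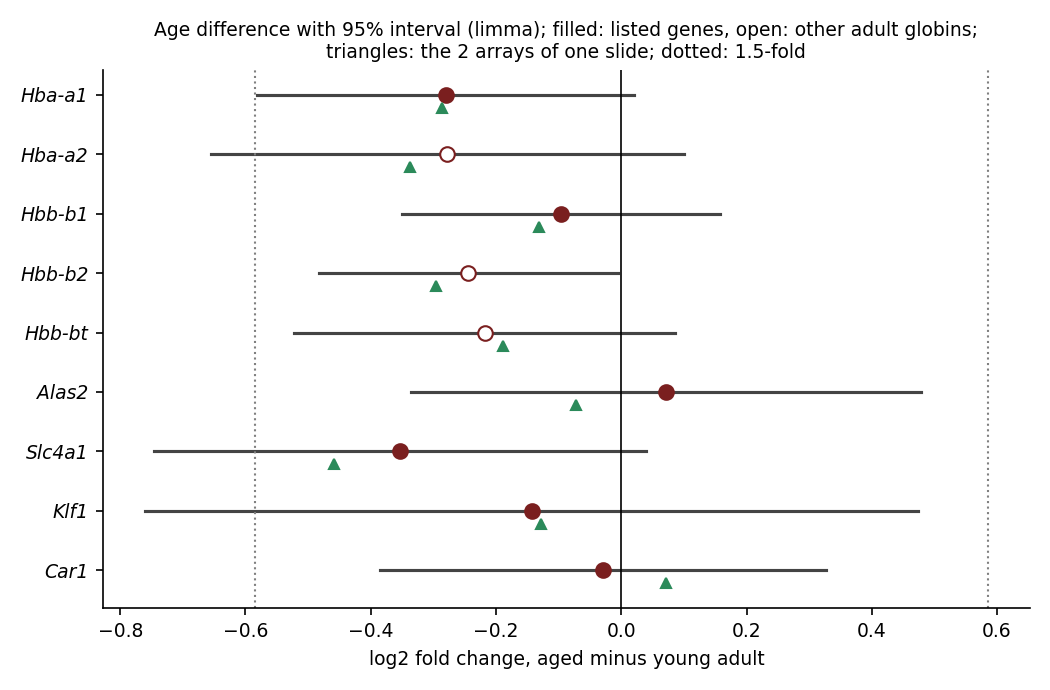
Log2 fold change of aged against young adult mice (horizontal axis) with its 95% interval by limma, for 6 of the measured genes (filled; *Epb42*, below background, is left out) and 3 other adult globin genes (open). Triangles give the difference between the 2 arrays of the shared slide, and dotted lines mark a 1.5-fold difference. The intervals of all 6 filled genes include 0, and those of *Slc4a1* and *Klf1* reach past a 1.5-fold fall. Of the open genes, *Hbb-b2* has an interval below 0 (-0.48 to -0.0057), and that of *Hba-a2* reaches past a 1.5-fold fall.

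The slide was followed because one slide was shared by the first arrays of both ages, whereas each of the other arrays had a slide of its own. Within that slide the log2 difference of aged against young adult was -0.29 for *Hba-a1*, -0.13 for *Hbb-b1*, -0.46 for *Slc4a1* and -0.13 for *Klf1*, all of the same sign as in the whole fit. It was 0.072 for *Car1* and -0.073 for *Alas2*, both of the other sign than in the whole fit. These values come from 1 array of each age and carry no test. A fit with the slide as a random block could not be made, since 0 of the 45604 genes gave an estimate of the slide correlation.

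The rest of the erythroid programme was followed with 6 further lists, of which 78 genes were measured and 58 were well above background on all 4 arrays. Of the 78 genes, 2 genes were called as higher and 3 as lower in aged mice, against 1.65% and 2.33% of all genes tested, and their median log2 fold change was -0.018. Several of these genes are also used by cells other than erythroid ones. In the lists below, a gene said to have risen or fallen was called higher or lower by the rule above. The number called depended on the processing, with 11 higher and 14 lower when dim probes were removed, where 11.7% and 12.6% of all genes left were called. No call in any list below held when any one of the 4 arrays was left out, or when the replicate number entered as a block, since limma then called 0 genes of all those tested.

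Enzymes of haem synthesis work in every cell. In this list of 8 genes, *Alad*, which encodes the second enzyme of the pathway, was at 9582 ± 379 in young adult mice (SD, n = 2 pools) and rose to 12947 ± 175 in aged mice, by 0.43 on the log2 scale (FDR = 0.245 by limma). *Alas1*, the form of the first enzyme used outside erythroid cells, was at 17302 ± 890 and 21958 ± 1.01, which is 0.34 on the log2 scale and passed the limit on P but not that on FDR (0.295). The median of the list was 0.10. Among 11 genes of haem and iron transport, *Hmox1*, which encodes the enzyme that breaks haem down, rose from 3820.3 ± 158 to 5680 ± 97.9 (log2 fold change 0.57, FDR = 0.209), and the median was -0.0081.

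The 20 genes of the red cell membrane other than *Slc4a1* and *Epb42* had a median of 0.049 for the log2 fold change, with 10 lower and 10 higher in aged mice. Of them 0 were called, against 3.98% of all genes tested, and 7 had an unadjusted P below 0.05 by limma, against 13.1%. These 7 went both ways, with *Tmod1* (0.37) and *Cd59a* (0.31) higher and *Gypc*, *Sptb*, *Rhd*, *Slc14a1* and *Aqp1* lower. *Rhag*, which encodes a protein of the Rh complex, stood clear of background on 0 of 4 arrays. It was picked out after its values had been seen, as were *Gata1* and *Gypc*. *Gypc*, a glycophorin gene that other cells express as well, was at 2091 ± 14.2 and 1596 ± 45.5 (log2 fold change -0.39, FDR = 0.257), close to the limit. *Aqp1*, a water channel of red cells and also of vessels and glands, was at 52915 ± 973 and 44762 ± 885 (-0.24, FDR = 0.364). *Dmtn* (0.15, FDR = 0.529) and *Tspan33* (0.12, FDR = 0.655), next in mean level, were higher in both aged pools.

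Of 13 genes for erythroid transcription factors and the Epo receptor, 10 were lower and 3 higher in aged mice, with a median of -0.18. Of all genes tested, 48.5% were lower. Of the 13 genes 3 were called lower, against 2.33% of all genes tested, and 0 were called higher. *Tal1*, a factor of blood and vessel precursors, fell from 201 ± 6.33 to 116 ± 10.8 (log2 fold change -0.79, FDR = 0.205 by limma). *Lyl1*, its relative, had a log2 fold change of -0.66 (FDR = 0.245), and *E2f2*, a factor of cell division, of -0.61 (FDR = 0.206). All 3 were DEGs, meaning that their mean level was at least 100 and their fold change at least 1.5, as for 1.96% of all genes tested. *Gata1*, the defining factor of erythroid cells, stood clear of background on 0 of 4 arrays. Of 17 measured genes of red cell enzymes and late maturation, 0 were called, against 3.98% of all genes tested. An unadjusted P below 0.05 by limma was found for 5 of them, against 13.1% of all genes. The median of the 17 genes was 0.049.

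Other cells of blood, marrow, bone and vessels were measured beside the erythroid genes, and their part in the erythroid values was not tested. All 12 endothelial genes were lower in both aged pools, a separation found for 21.8% of all genes tested. Of them 8 were called lower, against 2.33% of all genes tested. The list had a median log2 fold change of -0.56 and a summed level of 39161 to 40107 in young adult and 25070 to 25778 in aged mice. *Egfl7* had a log2 fold change of -0.79 (FDR = 0.184 by limma) and *Emcn* of -0.78 (FDR = 0.184). In the bone list 7 of 11 genes were called lower (median -0.87, summed level 38081 to 40396 against 18786 to 19503), and in the osteoclast list 5 of 8 (median -0.73, 52447 to 52961 against 18297 to 18458). Going by the level that the study reported for *Acp5*, most of the osteoclast sum may come from this gene. *Mmp9* is in both the osteoclast list and that of mature neutrophils.

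Of 11 genes of mature neutrophils, 4 were called lower and 1 higher, against 2.33% and 1.65% of all genes tested. *S100a8* fell from 3523 ± 11.04 to 1679 ± 11.4 (log2 fold change -1.07, FDR = 0.178 by limma) and *S100a9* by 1.08 on the log2 scale, while *Lcn2*, which epithelium makes as well, rose by 1.17. The summed level of this list was 126702 to 132636 in young adult and 134516 to 134685 in aged mice, and was made up mostly of *Csf3r* (115367 against 123784, not called). Among 15 genes of neutrophil precursors 3 fell and 1 rose, with a median of -0.18 and a summed level of 269605 to 280599 against 182354 to 190641. This sum was almost wholly that of *Ltf*, a gene that glands express too, which fell from 260021 to 163051 (log2 fold change -0.67, FDR = 0.201). The gene that rose was *Chil3*, from 735 ± 15.2 to 6523 ± 357 (3.15 on the log2 scale, FDR = 0.126), the largest difference of this list. *Cd177* (-1.31) and *Ngp* (-0.71) were the others that fell. Of 14 genes of megakaryocytes and platelets 4 fell and 0 rose (median -0.30, 10562 to 10598 against 7113 to 7613), among them *Pf4* (-0.53, FDR = 0.242). Of 13 genes of B cell precursors 1 rose (*Vpreb3*) and 0 fell, with *Igll1*, *Rag1* and *Rag2* clear of background on 0 of 4 arrays, named here after their values had been seen (median -0.023, 46493 to 46635 against 48243 to 48745).

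**Figure D3:**
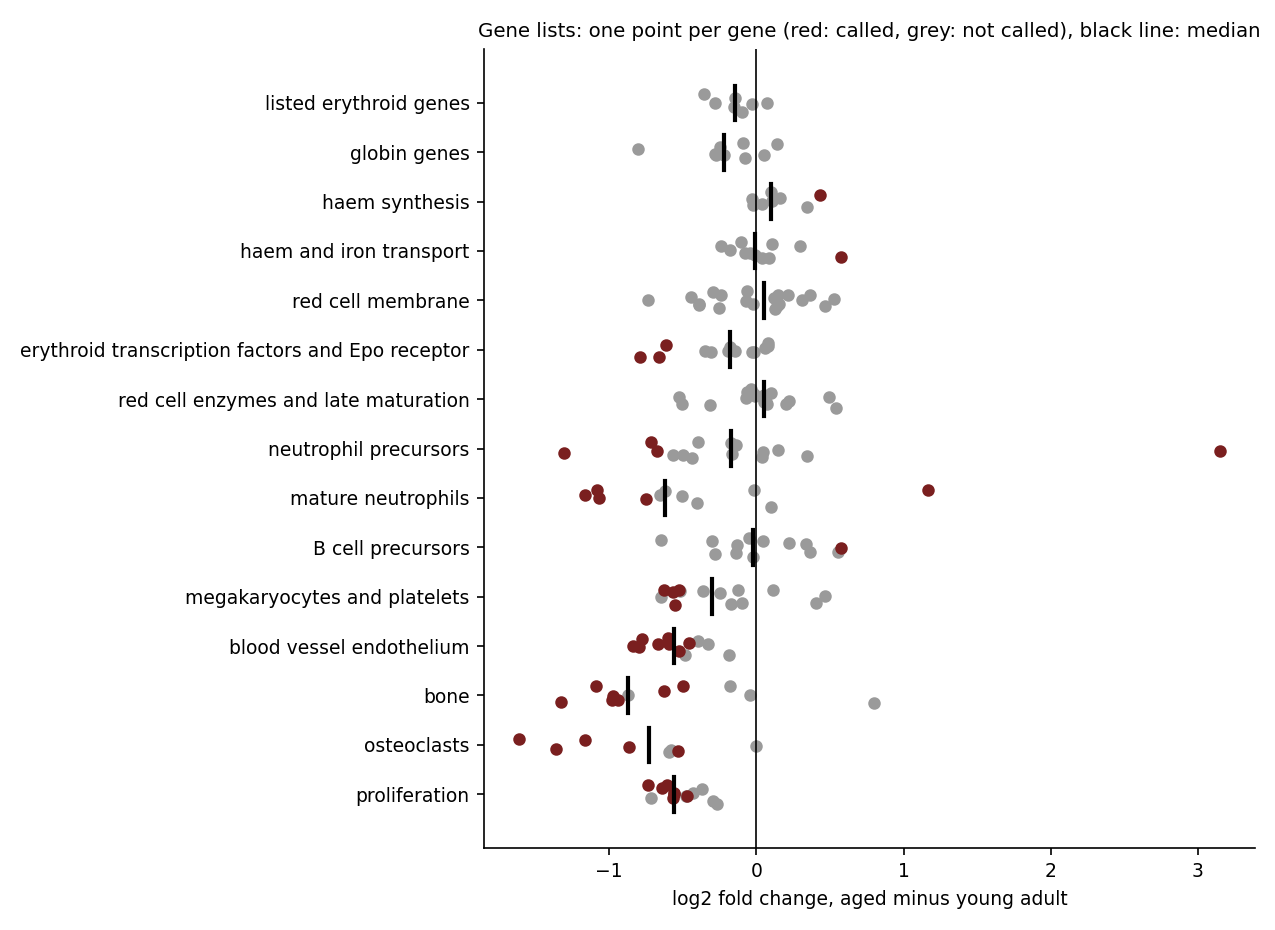
Log2 fold change of aged against young adult mice (horizontal axis) for each gene of the listed erythroid genes, of 6 further erythroid lists and of lists for other cells, with genes called by limma in red and the median of each list as a black line. The 7 listed erythroid genes lie between -0.35 and 0.071 with 0 called, and the median of the endothelial list is at -0.56 and that of the bone list at -0.87.

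The tissue was checked by 15 genes of olfactory neurons, sustentacular cells and glands, among them *Omp* and *Cyp2g1*, and all 15 were well above background on all 4 arrays. Of these 15, 12 were higher and 3 lower in aged mice, where 48.5% of all genes tested were lower. Of the 15, 2 were called higher (*Stoml3* and *Bpifb9b*), against 1.65% of all genes tested, and 0 lower, against 2.33%. In a list of 13 genes of dividing cells all 13 were lower, against 48.5% of all genes, with a median log2 fold change of -0.56. Of these 13, 7 were called lower, against 2.33% of all genes tested. Per array, the part of the non-control spots that stood well above background was between 63.1% and 76.8%, and the median local background between 32 and 67, with both arrays of the shared slide dimmer against their background. On these 2 arrays a dim gene such as *Slc4a1* or *Klf1* stood less far above background.

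Genes with a like pattern over the 4 arrays were searched with the mean profile of the measured erythroid genes. The mean centred log2 profile of the 5 genes well above background on all arrays was 0.015 and 0.081 in young adult mice and -0.094 and -0.0016 in aged mice. These 5 genes differ in direction, so that their mean lies near 0 and many genes are close to it by construction. Among 26722 other genes well above background on all 4 arrays, 2327 lay within a Euclidean distance of 0.1 of it. The 10 nearest, at distances from 0.0073 to 0.0145, included *Fut8*, *Chsy1*, *Wdcp*, *Gda*, *Dap* and *Ccn3*, and 4 probes' genes without a symbol in the table. A likeness over 4 arrays is a description only.

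**Figure D4:**
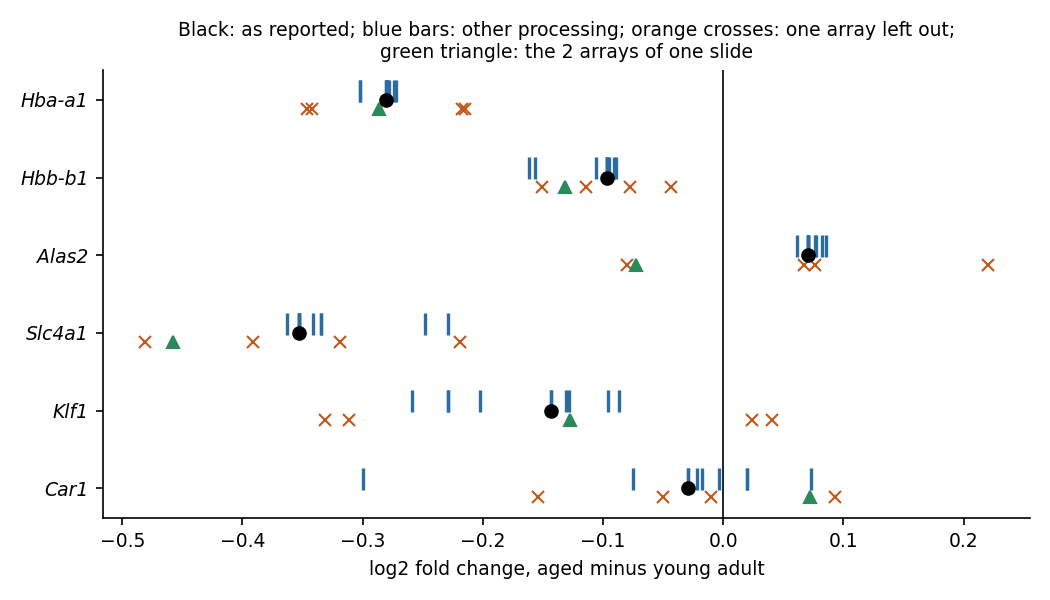
Log2 fold change of aged against young adult mice (horizontal axis) for 6 of the measured genes as reported (black), under other processing (blue bars), with one array left out (orange crosses) and within one slide (green triangles). *Hba-a1* (-0.35 to -0.21), *Hbb-b1* and *Slc4a1* (-0.48 to -0.22) stayed below 0 throughout, whereas *Alas2*, *Klf1* and *Car1* crossed 0.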

How the data were processed

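RNA from nasal mucosa was hybridised to Agilent one-color mouse arrays by the authors, and the deposited scanner output (Feature Extraction 11.0.1.1) holds a spot intensity per probe on a linear scale. The submitters' processing notes name R 3.2.1. A second deposited table holds an intensity equal to the scanner's processed signal at all 62976 spots of each array. Here the median spot intensity was background-corrected with normexp (offset 0), flagged spots were dropped, and log2 values were averaged over the spots of a probe, quantile-normalized and averaged over the probes of a gene with limma 3.58.1 in R 4.3.3. A model without covariates was fitted to 45604 genes (2 residual degrees of freedom), and 12 genes flagged on an array were left out. Of 56605 probes, 58.3% were matched to a symbol through RefSeq's table (GRCm38.p6); the rest stand under the design's own identifiers. The number of arrays limits the precision, and a fold change is the ratio of geometric means. The rule for named genes took all listed genes and globins, of each other list the called genes (up to 4) and up to 3 with the highest mean level, and the 10 nearest profiles; of the other lists only part of these are named, and *Rhag*, *Gata1*, *Gypc*, *Igll1*, *Rag1* and *Rag2* were named outside it. The listed genes and the marker lists were chosen with earlier results of these data known. Alternatives changed the background correction, signal, normalization, flags, probe filter, probe choice, block, limits and arrays.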

Additional observations from a re-analysis of the deposited data

How the results depend on the processing

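Of the 7 erythroid genes, *Hba-a1*, *Hbb-b1* and *Slc4a1* were lower in aged mice under all 15 alternatives, with log2 fold changes of -0.35 to -0.21, -0.16 to -0.043 and -0.48 to -0.22. Of the 9 settings under which any gene was called, the number of these genes called was 0 under 8. It was 2 (both lower) under a probe filter (well above background on every array of at least one age). Under this filter fewer genes entered (29495), and 12.6% of them were called lower. *Slc4a1* passed it through its young adult arrays, where it is high. The genes other than *Hba-a1*, *Hbb-b1* and *Slc4a1* changed sign. *Alas2* was -0.073 on one slide alone and ran from -0.080 (without young adult replicate 2) to 0.22 (without young adult replicate 1) with single arrays left out. *Klf1* ran from -0.33 (without young adult replicate 1) to 0.040 (without young adult replicate 2), with 0.024 without aged replicate 1. *Car1* was 0.073 with the processed signal scaled to the 75th percentile, 0.020 with the probe filter and with the brightest probe and 0.072 on one slide, and ran from -0.15 (without young adult replicate 1) to 0.093 (without young adult replicate 2). *Epb42*, below background, was 0.57 and 0.010 with the processed signal scaled to the 75th percentile and quantile-normalized. The cause was not tested.

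Of all genes, 754 were called higher and 1063 lower by limma. The counts were 2107 and 2475 with a normexp offset of 50, 1788 and 2239 without background correction, 2029 and 2343 with the quantile-normalized processed signal, and 3445 and 3706 with the probe filter. The other erythroid lists then had 8 higher and 11 lower, 9 and 8, 6 and 10, and 11 and 14 in the same order, 5 and 5 with the brightest probe, and 1 higher with 75th percentile scaling. The lists of other cells had 8 higher in each of these first 4 settings, and 56 lower with the probe filter.

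With the replicate number as a block, 0 genes were called in either direction in all these groups (smallest FDR of any gene 0.433), and the same held without each single array (counts from 0 to 0, smallest FDR 0.408 to 0.677), so these fits say nothing about stability. Same-numbered arrays gave a correlation of their deviations of -0.078 over all genes and 0.12 over 26727 genes above background on all arrays, and were not taken as pairs. The slide as a random block could not be fitted.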
